A study of Mus musculus with 12 samples.

Results

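The comparison described here sets LSK cells of Tet2 knockout mice (KO) against LSK cells of wild-type mice (WT) across all genes. LSK cells are the bone marrow cells without lineage markers that carry Sca-1 and Kit on their surface, the fraction in which blood stem cells are found. The members were taken from the sample labels as the KO and WT libraries of the LSK sort, 4 of the 12 RNA-seq libraries of the series (2 KO and 2 WT). The other 8 hold LSK cells of Tet2 mutant mice (Mut), and KO, WT and Mut cells of a second sorted population, labelled MPP for multipotent progenitors. The KO, Mut and WT mice were all of a mixed 129/C57/B6 strain and 10 weeks old. Marrow of 2 mice per genotype was pooled before the sort, the RNA was amplified, and each pool gave 2 technical libraries with ERCC spike-in RNAs. No treatment is named in the labels, and they give neither the deleted part of Tet2 nor whether the deletion reaches beyond blood cells. Because both libraries of a group came from the same pool, the standard errors and p values below reflect how far libraries of 1 pool differ and say nothing of mice. In bulk RNA, fewer cells of a type and less RNA per cell cannot be told apart.

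Tet2 oxidises the methyl group of methylated cytosines in DNA, a step on the way to their demethylation, and binds partner proteins that act on chromatin. In mouse marrow, loss of Tet2 is known to enlarge the stem and progenitor pool and to favour myeloid output. The title of the series places its question in functions of Tet2 apart from its catalysis. Within the LSK fraction, long-term stem cells are sparse, and most cells are multipotent progenitors that already carry low levels of transcripts of the lineages they can enter.

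The 4 libraries held 17220392 and 13071512 gene counts in KO, against 9181027 and 12098928 in WT. Genes with at least 1 count numbered 14264 and 13970 in KO, against 12470 and 12614 in WT. Across genes, log2(CPM + 1), where CPM is a count scaled to the size of its library, correlated at r = 0.963 between the KO libraries and at r = 0.857 between the WT libraries, while KO and WT libraries correlated at 0.897 to 0.902. In 169 genes that averaged at least 50 counts in WT, 1 WT library had 0 counts, while this was so for 5 genes in KO. A further 62 genes had 0 counts in both WT libraries and at least 50 on average in KO, against 3 genes the other way round. A difference that rests on a WT value of 0 comes from libraries of 1 pool that differed in which genes had 0 counts. Its bound covers counting error only. Whether such a 0 reflects absent RNA was not tested. ERCC spike-ins took 0.160% and 0.147% of counts in KO, against 0.229% and 0.193% in WT. Scaling by them moved the median of all genes by 0.51 on the log2 scale. Their make-up differed between the groups. ERCC-00130 held 2.14% and 3.21% of spike-in counts in KO, against 16.3% and 20.9% in WT. ERCC-00074 held 34.2% and 34.5% in KO, against 26.5% and 23.4% in WT. Whether the spike-ins are a common reference for KO and WT was not tested. Directions below are relative to the bulk of the genes (TMM scaling). Where the median of a gene group described below changes sign under spike-in scaling, both values are given. Some groups not described below changed sign too, among them Hox and Meis genes (-0.17 to 0.33) and clock genes (-0.10 to 0.46).

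The LSK label was checked against surface markers of the sort. Kit, the receptor for stem cell factor, stood at 595 and 603 CPM in KO, against 606 and 661 CPM in WT. Ly6a, which encodes Sca-1, stood at 170.2 and 158 CPM in KO, against 99.0 and 62.5 CPM in WT, so the KO libraries were above the WT libraries. The lineage genes Pax5, Ms4a1, Cd8b1, Hba-a1, Hbb-b1, Col1a1 and Cxcl12 were at 0 counts in all 4 libraries. Many other lineage genes were not. At 0 counts in all 4 were 1 of 18 T and NK cell genes and 4 of 19 B and plasma cell genes. For erythroblast genes this was so in 8 of 14, and for genes of stroma and endothelium in 7 of 16. These zeros therefore do not show that RNA of other lineages was absent. Globin genes have near-identical copies, and Ly6a belongs to a family of close relatives, so counts of both are uncertain.

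Tet2 serves as a partial check of the genotype labels. It lies on the minus strand of chromosome 3 (133463679 to 133545139, GRCm38), and Gm42567 overlaps it on the other strand. Its level was 30.5 and 33.6 CPM in KO, against 92.6 and 67.1 CPM in WT, and both KO libraries lay below both WT libraries. The log2 difference of -1.32 (SE 0.308) was not called (adjusted p = 0.207 with edgeR, 0.00451 with DESeq2). In MPP cells, on the scale of all 12 libraries, Tet2 stood at 34.9 CPM in both KO libraries, against 39.6 and 29.4 CPM in WT (log2 0.01, SE 0.284), so its count does not separate the MPP libraries labelled KO from those labelled WT. The remaining counts do not test the deletion, since a count over the whole gene holds exons outside it. Tet1 and Tet3, the other enzymes of the family, overlapped between the groups, with 76.7 and 88.1 CPM in KO against 67.5 and 80.0 CPM in WT for Tet1, and 96.9 and 86.5 CPM in KO against 141 and 80.5 CPM in WT for Tet3.

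Of 13170 genes tested with edgeR's quasi-likelihood test, 6 were called at an adjusted p below 0.05, which is 0.0456%. Prg2 and Mpo rose in KO (0.0152%), and Jchain, Rn45s, Lars2 and Pisd-ps1 fell (0.0304%). At an unadjusted p below 0.05 stood 13.8% of the genes, 1058 higher in KO (8.03%) and 753 lower (5.72%). DESeq2 called 336 genes higher (2.55%) and 257 lower (1.95%), the 6 among them. In 24.2% of all genes both KO libraries were above both WT libraries, and in 18.7% both were below. The calls rest on each KO library: without KO replicate 1 or without KO replicate 2 there were 0 calls by edgeR, with 698 and 762 genes at an unadjusted p below 0.05, while without WT replicate 1 or 2 there were 1475 and 1690 calls. Under spike-in scaling 71 genes were called, 66 higher and 5 lower, and with only KO and WT libraries in the fit 3 were called, Mpo, Prg2 and Rn45s. Genes given below as values only did not pass the adjusted threshold. Counts of list members given below stand beside these shares of all genes.

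Mpo encodes myeloperoxidase, the peroxidase of primary granules in neutrophil and monocyte precursors. Its level was 4178 and 4044 CPM in KO, against 1615 and 1754 CPM in WT. Both KO libraries were well above both WT libraries, 2.44-fold by the fit (log2 1.29, SE 0.0691, adjusted p = 0.00244). The gene lies on chromosome 11 (87793581 to 87804413, plus strand).

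Prg2 encodes major basic protein, a toxic component of eosinophil granules. It had 2610 and 1913 counts in KO (151 and 145 CPM), against 0 and 2 counts in WT (0 and 0.171 CPM). The ratio of the summed counts, corrected for depth, was 1532 (95% interval 424 to 12652), and the fit gave an adjusted p of 0.00496. With a quality weight per group in limma voom, the adjusted p was 0.34. Prg2 lies on chromosome 2 (84980461 to 84983632, plus strand).

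Jchain encodes the joining chain that links immunoglobulin units in IgM and IgA. It stood at 11.6 and 9.35 CPM in KO, against 92.9 and 104 CPM in WT, and at 204 and 247 CPM in Mut. The KO libraries were thus the lowest of the LSK libraries, 9.36-fold below WT (log2 -3.23, SE 0.238, adjusted p = 0.00798). The difference was of similar size in MPP cells (log2 -2.88, SE 0.226), and the test of LSK against MPP did not call it (difference -0.33, SE 0.302, adjusted p = 0.735). Jchain lies on chromosome 5 (88519809 to 88527891, minus strand).

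Other genes of B and plasma cells were compared too. Of 11 tested members of that list, 3 were higher and 1, Jchain itself, lower at an unadjusted p below 0.05. Xbp1, a transcription factor of plasma cells, had 132 and 128 CPM in KO, against 112 and 98.0 CPM in WT. Sdc1, which encodes the plasma cell surface protein syndecan-1, averaged 43.6 ± 0.837 CPM in KO and 10.7 ± 3.21 CPM in WT (SD over 2 technical libraries of 1 pool each). Vpreb1 and Igll1, the surrogate light chain genes of early B cells, had 4.56 and 6.91 CPM and 2.25 and 2.43 CPM in KO, and at most 1 count in WT. Neither could have passed the filter on low counts through WT.

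The remaining called genes are a ribosomal RNA precursor, a synthetase gene and a pseudogene. Rn45s is the precursor of the 18S, 5.8S and 28S ribosomal RNAs. Its level was 24582 and 24963 CPM in KO, against 37470.1 and 38169 CPM in WT (log2 -0.61, SE 0.0482, adjusted p = 0.00967). Lars2, the mitochondrial leucyl-tRNA synthetase, had 12619 and 12766 CPM in KO, against 18085 and 19556 CPM in WT (log2 -0.57, SE 0.0533, adjusted p = 0.0256). Pisd-ps1, a transcribed pseudogene of the phosphatidylserine decarboxylase gene Pisd, had 129.6 and 128 CPM in KO, against 356 and 346 CPM in WT (log2 -1.44, SE 0.146, adjusted p = 0.0358). In all 3 genes the groups were apart. Under spike-in scaling the log2 differences were -0.10 for Rn45s, -0.07 for Lars2 and -0.94 for Pisd-ps1, and none of the 3 stayed called. Pisd-ps1 shares sequence with Pisd and its other copies, so its count is uncertain. How much of each row stems from ribosomal RNA was not tested.

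**Figure D1:**
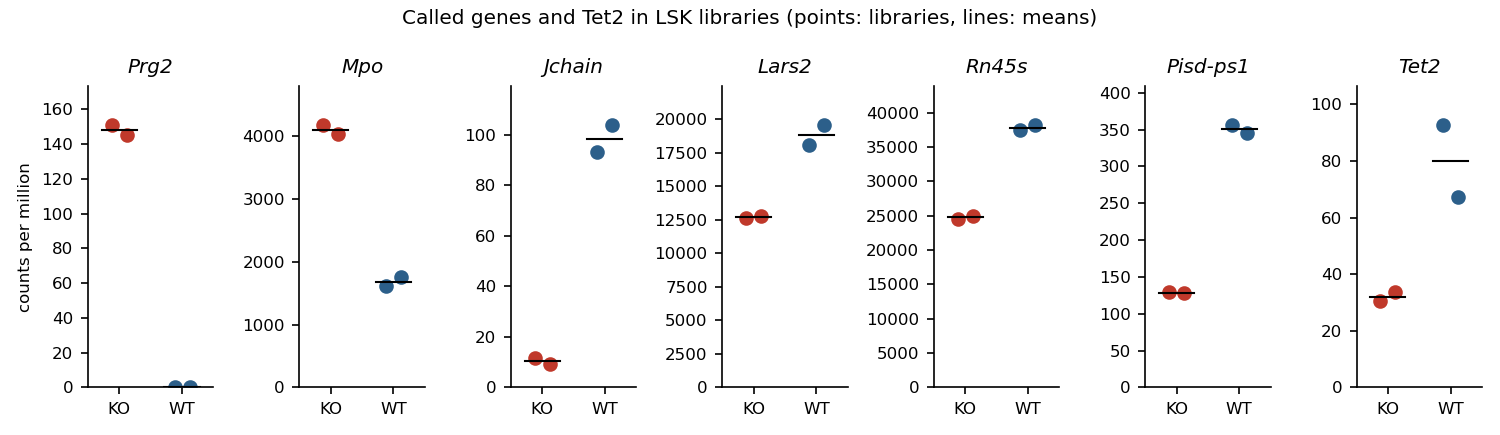
Level in CPM of the 6 called genes and of Tet2 in each LSK library, KO left of WT, with the group mean as a line and every axis starting at 0. In all 7 genes the KO points lie apart from the WT points, with Prg2 at 0 and 0.171 CPM in WT.

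**Figure D2:**
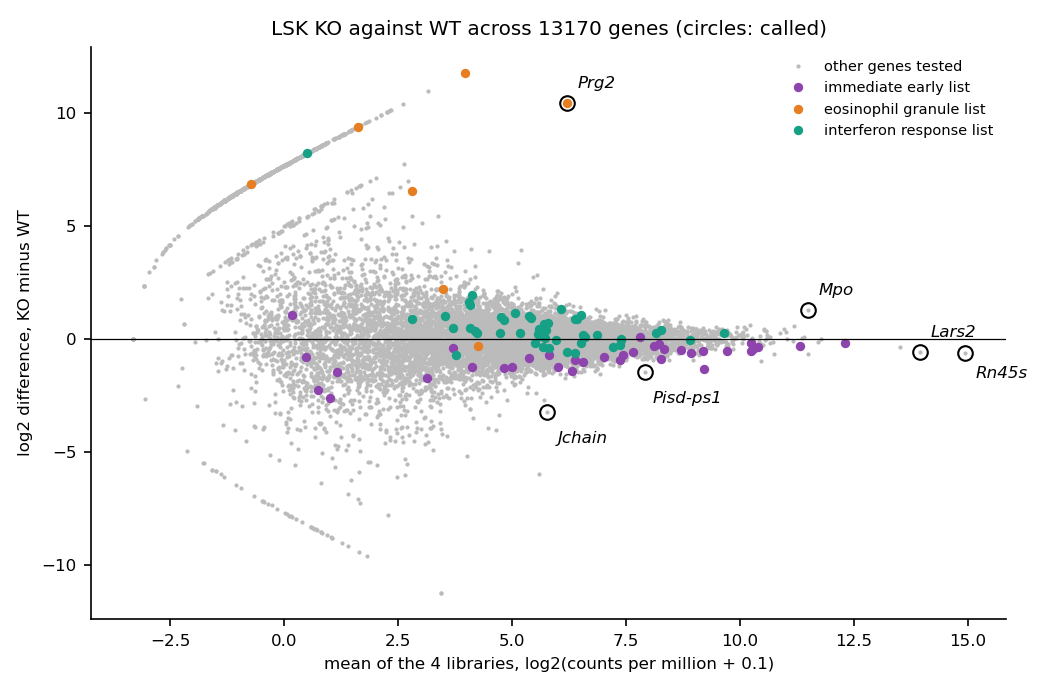
Log2 difference of KO minus WT (y axis) over the mean level of the 4 libraries on the log2(CPM + 0.1) scale (x axis) for 13170 genes, with the 6 called genes circled and 3 gene lists coloured. Fitted differences on the outer diagonal streaks belong to genes at 0 in 1 group and depend on the prior count. Of the 36 immediate early genes, 34 lie below 0, and 31 passed a stricter minimum count of 50.

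Primary granule and granulocyte-monocyte genes were mostly above WT in KO. These genes encode the enzymes stored in the first granules of myeloid precursors and the factors and surface proteins of granulocyte-monocyte progenitors. Of 23 tested members, 1 rose (Mpo), 11 were higher and 3 lower at an unadjusted p below 0.05, and the median log2 difference was 0.43, beside 0 over all genes, and 0.94 beside 0.51 under spike-in scaling. Both KO libraries were above both WT libraries in 14 members and below them in 3, beside 24.2% and 18.7% of all genes. Summed over the list, the level was 8527 and 8124 CPM in KO, against 4579 and 5168 CPM in WT. Mpo alone made up 4178 and 4044 CPM of the sums in KO, and 1615 and 1754 CPM in WT.

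Among these, Irf8, the factor that directs monocyte and dendritic cell fate, had 185 CPM in both KO libraries, against 58.3 and 95.1 CPM in WT (log2 1.27, SE 0.244). Ly6c2, a surface protein of monocytes whose close relatives make its count uncertain, had 85.2 and 77.3 CPM in KO, against 5.04 and 17.6 CPM in WT (log2 2.83, SE 0.53). Ctsg, the granule protease cathepsin G, had 311 and 299.6 CPM in KO, against 134 and 197 CPM in WT (log2 0.88, SE 0.209). The groups did not overlap in these 3 genes, whose adjusted p values ran from 0.172 to 0.211. The other granule proteases differed less, with Elane, neutrophil elastase, at 201 and 183 CPM in KO against 128 and 189.6 CPM in WT, and Prtn3, proteinase 3, at 459 and 398 CPM in KO against 242 and 394 CPM in WT. Elane overlapped between the groups.

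Not every regulator of this lineage went with Mpo. Klf4, a factor of monocyte fate that also belongs to the immediate early genes, had 45.3 and 41.1 CPM in KO, against 126 and 104 CPM in WT. Gfi1, a repressor needed for neutrophil formation, had 30.5 and 16.5 CPM in KO, against 63.8 and 56.3 CPM in WT. Hk3, the hexokinase of myeloid cells, had 56.6 and 39.1 CPM in KO, against 115 and 83.1 CPM in WT. KO was below WT in every library of these 3 genes.

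Late neutrophil genes, which mark cells past the progenitor stage, had no common direction, with 1 of 10 tested members higher and 2 lower at an unadjusted p below 0.05. S100a8 and S100a9, the subunits of calprotectin, had 16.4 and 8.74 CPM and 19.1 and 19.1 CPM in KO, against 43.0 and 91.2 CPM and 40.8 and 73.5 CPM in WT. Ngp, a granule protein of later neutrophil stages, had 5.49 and 7.22 CPM in KO, against 14.6 and 8.71 CPM in WT. Other members went the other way, with Lcn2 and Retnlg at 36 and 34 counts in KO and 0 in WT. Both KO libraries were above both WT libraries in 5 of the 10 and below them in 3, beside 24.2% and 18.7% of all genes. In 4 of the 10, WT had at most 3 counts, so these could not have passed the filter on low counts through WT.

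Several eosinophil granule genes other than Prg2 also had counts in KO and at most 3 counts in WT. Of 11 genes listed, 7 passed the filter on low counts, 5 of them with at most 3 counts in WT, so these could not have passed through WT and their number says nothing of direction. Epx, the eosinophil peroxidase, had 544 and 403 counts in KO (31.4 and 30.6 CPM), against 0 counts in both WT libraries, at least 214-fold higher against a floor of 3 counts over the WT group. Prg3, a homologue of Prg2, had 8.03 and 3.88 CPM in KO, against 0 in WT. Alox15, the lipoxygenase of eosinophils and macrophages, had 10.9 and 16.5 CPM in KO, against 0 and 0.256 CPM in WT, a ratio of counts of 91.7 (95% interval 31.1 to 446). Epx was also at 0 counts in both Mut libraries, while Prg2 stood at 7.30 and 10.6 CPM there.

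Receptors of eosinophils were less clear. Siglecf, a sialic acid-binding receptor, had 9.87 and 24.0 CPM in KO, against 41.1 and 1.20 CPM in WT, so the groups overlapped. Il5ra, the receptor chain for interleukin 5, had 18 counts in 1 KO library and 0 in the other 3 libraries, and Ccr3, the eotaxin receptor, had 44 counts in KO and 0 in WT. In all, the list summed to 232 and 243 CPM in KO, against 48.9 and 1.62 CPM in WT. Prg2 alone made up 151 and 145 CPM of the KO sums, and Siglecf 41.1 and 1.20 CPM of the WT sums.

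Levels of the same granule genes were far higher in MPP cells of the series. On the scale of all 12 libraries, Prg2 averaged 141 CPM in LSK KO and 0.0797 CPM in LSK WT, beside 4729 CPM in MPP KO and 7324 CPM in MPP WT. The level in LSK KO was 2.98% of that in MPP KO for Prg2, 2.88% for Epx and 1.85% for Prg3. For Mpo and Ctsg it was 12.9% and 12.3%, and the excess of LSK KO over LSK WT came to 7.70% and 5.73% of the level in MPP KO. For Irf8 the level in LSK KO was 39.7% of that in MPP KO, and the excess over LSK WT 23.5%. Of 44 genes with at least 100 CPM in MPP WT and at least 10 times the level of LSK Mut, a set chosen after values were seen that uses no LSK KO or WT library, 43 were tested. Their log2 difference in LSK was above 0 in 27, beside 50% of all genes, and below 0 in 16, with a median of 0.52. At an unadjusted p below 0.05, 9 were higher and 3 lower, beside 8.03% and 5.72% of all genes. Prg2 and Epx meet the rule of this set, so it is not separate from the results above. Of the 5 genes chosen the other way round, with at least 100 CPM in LSK Mut and 10 times the level of MPP WT, 1 was above 0 and 4 below. Whether cells or RNA of the other sort entered the LSK libraries was not tested.

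Basophil and mast cell genes were mixed. Of 11 tested members 1 was higher and 5 lower at an unadjusted p below 0.05, beside 8.03% and 5.72% of all genes. The median of -0.48 became 0.08 under spike-in scaling, beside 0.51 over all genes. In 4 of the 11, KO or WT had at most 3 counts. These could not have passed the filter on low counts through that group. Cma1, mast cell chymase, had 0 counts in both KO libraries, against 34.6 and 8.37 CPM in WT, at least 200.3-fold lower in KO. Gzmb, a granzyme of cytotoxic and mast cells, had 2.14 and 3.57 CPM in KO, against 27.0 and 66.6 CPM in WT. Slc18a2, the vesicular transporter that loads histamine, had 66.7 and 66.6 CPM in KO, against 148 and 142 CPM in WT. Ms4a2, the beta chain of the IgE receptor, went the other way, with 4.50 and 7.67 CPM in KO against 0 and 0.0854 CPM in WT, while Fcer1a, its alpha chain, had 7.10 and 3.72 CPM in KO against 16.2 and 35.3 CPM in WT.

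Immediate early genes form the first wave of transcription after a growth factor, stress or the handling of tissue, without need of new protein. They encode transcription factors of the AP-1, Egr, Nr4a and Klf families and feedback inhibitors such as dual-specificity phosphatases. Of 36 genes, all tested, 0 were called by edgeR over all genes, 21 were lower and 0 higher at an unadjusted p below 0.05, and 11 were lower by DESeq2. The log2 difference was below 0 in 34 of 36, with a median of -0.72 beside 0 over all genes. Both KO libraries lay below both WT libraries in 28, beside 18.7% of all genes. Under spike-in scaling the median was -0.16 beside 0.51 over all genes, with 0 of 36 at an unadjusted p below 0.05 in either direction. Summed, these genes stood at 15268 and 16077 CPM in KO, against 20722 and 20558 CPM in WT.

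The promoter bases before the start of 4 of these genes, and of 2 interferon genes taken up further on, are shown because most members of each list lay on the same side of 0 and such genes have known control elements. The genes were picked after their values were seen. Sequences are from RefSeq on GRCm38.p6, 160 bases 5′ to 3′ on the strand of the gene, ending just before the start. Fos lies at chr12:85473730-85473889 (plus strand), Fosb at chr7:19310046-19310205 (minus), Junb at chr8:84978749-84978908 (minus) and Nr4a1 at chr15:101266686-101266845 (plus). Capitals mark TGACG, the half-site of the cAMP response element, on either strand.
Fos: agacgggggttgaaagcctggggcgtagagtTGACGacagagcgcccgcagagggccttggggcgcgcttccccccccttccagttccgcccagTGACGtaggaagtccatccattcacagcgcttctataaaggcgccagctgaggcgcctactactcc
Fosb: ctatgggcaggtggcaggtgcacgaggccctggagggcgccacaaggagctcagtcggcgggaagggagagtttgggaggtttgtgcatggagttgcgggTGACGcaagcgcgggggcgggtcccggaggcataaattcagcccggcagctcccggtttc
Junb: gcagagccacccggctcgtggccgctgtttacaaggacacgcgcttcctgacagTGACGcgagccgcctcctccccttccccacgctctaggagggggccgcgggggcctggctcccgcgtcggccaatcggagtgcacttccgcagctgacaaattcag
Nr4a1: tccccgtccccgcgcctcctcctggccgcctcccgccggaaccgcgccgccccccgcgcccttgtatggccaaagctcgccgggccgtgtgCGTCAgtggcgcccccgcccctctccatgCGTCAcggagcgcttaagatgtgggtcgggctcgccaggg
The half-site begins 129 and 66 bases before the start in Fos, 60 in Fosb, 106 in Junb, and 69 and 40 in Nr4a1. It was in the 250 bases before the start in 17 of the 30 immediate early genes with a sequence, 56.7%, beside 19.8% of 27025 genes in the table. A match is a run of letters, not a measured binding site. This share, and that of the interferon genes further on, describes the list and does not compare KO with WT. The genes set beside it were not matched for base content.

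Fos, an AP-1 subunit and the usual marker of this response, had 4753 and 4655 CPM in KO, against 5469 and 5265 CPM in WT (log2 -0.19, SE 0.0497). Fosb, its relative, had 469 and 483 CPM in KO, against 633 and 748 CPM in WT (log2 -0.54, SE 0.121). Junb, a partner of both, had 1115 and 988 CPM in KO, against 1409.6 and 1479.8 CPM in WT (log2 -0.46, SE 0.0987). In these 3 genes, and in Jun with 2052 and 2513 CPM in KO against 2662 and 2942 CPM in WT, the groups did not overlap. Under spike-in scaling, Fos was at 0.32, Jun at 0.21 and Junb at 0.04 (log2), the other side of 0.

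Nr4a1, an orphan nuclear receptor that keeps stem cells quiescent in mice, had 219.7 and 210.4 CPM in KO, against 374 and 425 CPM in WT (log2 -0.89, SE 0.147). Egr1, a zinc finger factor linked in mice to stem cell quiescence and retention in marrow, had 664 and 719 CPM in KO, against 913 and 1055 CPM in WT (log2 -0.51, SE 0.112). Ppp1r15a, which encodes the stress phosphatase subunit GADD34, had 401 and 369 CPM in KO, against 561 and 622 CPM in WT (log2 -0.62, SE 0.117). The groups were apart in each, and adjusted p values ran from 0.157 to 0.194. Btg2, an antiproliferative gene of the same list, overlapped at 237 and 221 CPM in KO against 200.3 and 237 CPM in WT.

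Genes of inflammatory and NF-kB signalling share inducers with the immediate early genes. Of 24 tested members, 0 were called by edgeR, and 1 was higher and 7 lower at an unadjusted p below 0.05, with a median of -0.41 that became 0.09 under spike-in scaling, beside 0.51 over all genes. Nfkbia, the main inhibitor and itself an NF-kB target, had 283 and 287 CPM in KO, against 442 and 409.8 CPM in WT. Nfkbiz, an inducible cofactor, had 85.7 and 91.3 CPM in KO, against 188 and 145 CPM in WT. Relb, a subunit of NF-kB, had 22.9 and 26.4 CPM in KO, against 3.25 and 0.0854 CPM in WT, and was the member higher at an unadjusted p below 0.05.

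**Figure D3:**
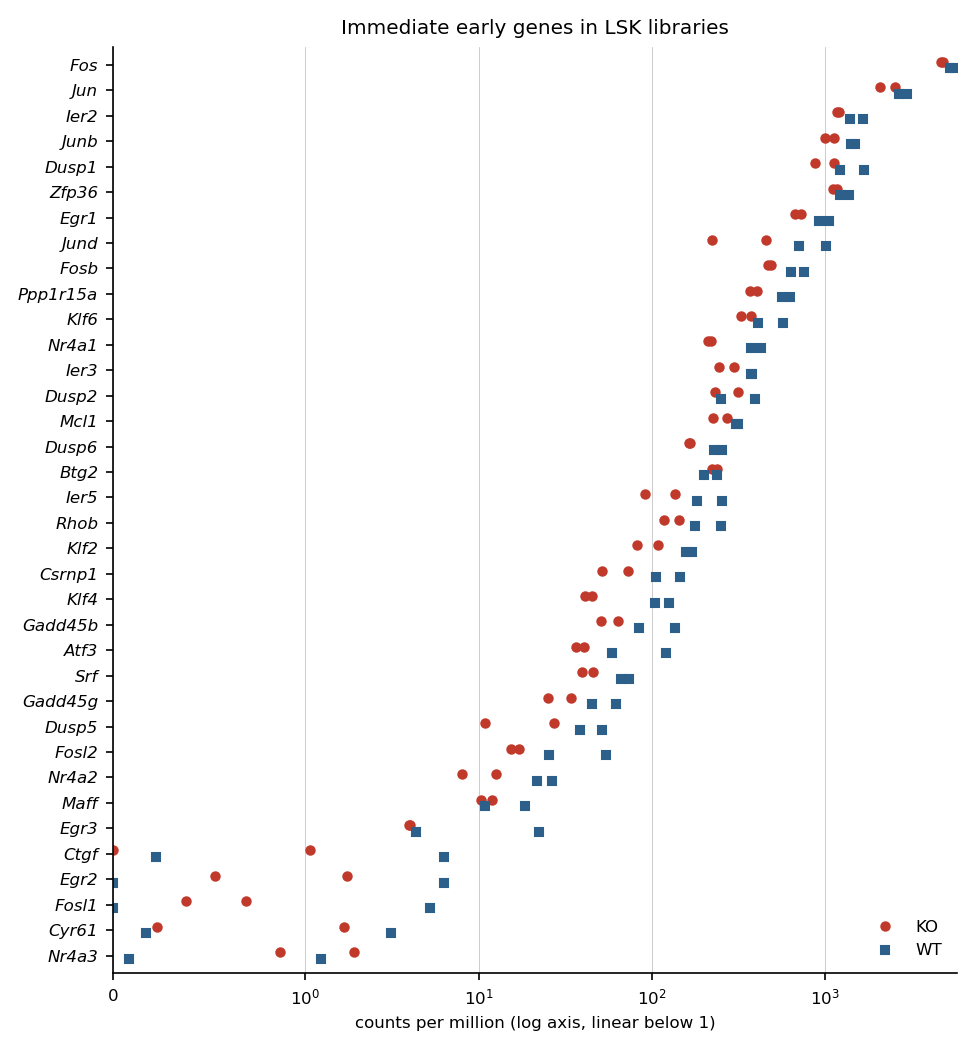
Level in CPM (log axis, linear below 1) of the 36 immediate early genes in each LSK library, KO as circles above WT as squares, in order of the WT mean. In 28 genes both KO points lie left of both WT points (18.7% over all genes).

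Interferon response genes, which block viral spread and are set at a low tonic level in stem cells, tended to be above WT in KO. Of 47 tested members 0 were called by edgeR, 11 were higher and 0 lower at an unadjusted p below 0.05, and DESeq2 called 2 higher. The median log2 difference was 0.29 beside 0 over all genes. Both KO libraries were above both WT libraries in 19 members and below them in 3, beside 24.2% and 18.7% of all genes. With only KO and WT libraries in the fit, 4 were higher at an unadjusted p below 0.05.
Promoter bases are printed for a pair of them in the same way, Ifit3 at chr19:34583369-34583528 (plus strand) and Isg15 at chr4:156200819-156200978 (minus), with capitals for GAAANNGAAA, the core of the interferon-stimulated response element, on either strand.
Ifit3: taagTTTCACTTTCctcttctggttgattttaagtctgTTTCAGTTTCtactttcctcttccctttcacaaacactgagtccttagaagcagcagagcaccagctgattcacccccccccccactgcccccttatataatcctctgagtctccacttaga
Isg15: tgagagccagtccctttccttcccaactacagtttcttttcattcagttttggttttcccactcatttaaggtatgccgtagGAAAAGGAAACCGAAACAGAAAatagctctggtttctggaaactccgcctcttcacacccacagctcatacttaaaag
In Isg15, 3 matches overlap and run into each other. Within 250 bases before the start, GAAANNGAAA was in 14 of 34 interferon genes with a sequence, 41.2%, beside 3.46% of all genes in the table and 2 of 30 immediate early genes.

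Ifi47, a GTPase induced by interferon gamma, had 131 and 116 CPM in KO, against 58.9 and 57.6 CPM in WT (log2 1.09, SE 0.197). Isg15, the ubiquitin-like modifier, had 51.6 and 41.1 CPM in KO, against 14.3 and 26.8 CPM in WT (log2 1.17, SE 0.473). Oasl1, of the oligoadenylate synthetase family, had 21.6 and 33.9 CPM in KO, against 6.94 and 7.26 CPM in WT. The groups did not overlap in these genes, and adjusted p values were 0.171, 0.346 and 0.239. Ifit3, which binds to its antiviral relatives, had 86 and 4 counts in KO and 0 in both WT libraries, so that its difference rests on KO replicate 1. Irf7, the factor that amplifies interferon output, had 73.1 and 64.2 CPM in KO, against 46.6 and 37.8 CPM in WT.

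Antigen presentation genes lay on the same side. B2m, the light chain of MHC class I, had 2918 and 2712 CPM in KO, against 1753 and 1986 CPM in WT (log2 0.59, SE 0.0793, adjusted p = 0.113). Of 16 tested genes of dendritic cells and MHC class II, 5 were higher and 0 lower at an unadjusted p below 0.05. The median was 0.58, and 0.34 over the 14 genes that passed a minimum count of 50. At most 3 counts in WT were found for 3 of the 16, which could not have passed the filter on low counts through WT. Cd74, the invariant chain, had 131 and 132 CPM in KO, against 70.3 and 89.8 CPM in WT. Siglech, a receptor of plasmacytoid dendritic cells, had 142 counts in KO and 0 in WT, at least 32.1-fold higher.

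Stem cell genes were more often below WT than above it. Of 31 tested members 0 were called by edgeR, 2 were higher and 10 lower at an unadjusted p below 0.05, and DESeq2 called 2 lower. The median was -0.46 beside 0 over all genes, which became 0.05 under spike-in scaling, where all genes stood at 0.51. Slamf1, the surface protein CD150 of long-term stem cells, had 1.21 and 9.50 CPM in KO, against 29.8 and 44.9 CPM in WT. Mecom, a zinc finger factor needed for stem cell maintenance, had 20.8 and 33.4 CPM in KO, against 65.6 and 57.9 CPM in WT. Gata2, a factor of stem cells and mast cells, had 289.9 and 212 CPM in KO, against 403 and 435 CPM in WT (log2 -0.74, SE 0.177). The groups did not overlap in these 3 genes, whose adjusted p values ran from 0.216 to 0.307.

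Other stem cell genes divided. Hlf, Fgd5, Hoxa9 and Vldlr were below WT in both KO libraries, as with Fgd5 at 14.0 and 21.5 CPM in KO against 40.5 and 47.0 CPM in WT. Procr, the surface receptor EPCR of long-term stem cells, was not, at 39.6 and 45.6 CPM in KO against 35.3 and 26.0 CPM in WT. Tie1, a receptor tyrosine kinase of stem and endothelial cells, had 114 and 112 CPM in KO, against 57.6 and 74.6 CPM in WT. Surface markers that rise as stem cells become multipotent progenitors stood above WT, with Cd48 at 259.8 and 231 CPM in KO against 122 and 133 CPM in WT, Cd34 at 1146 and 1184 CPM in KO against 885 and 717 CPM in WT, and Flt3 at 1096 and 1209 CPM in KO against 915 and 1020.1 CPM in WT. Of 14 sort markers, 5 were higher and 2 lower at an unadjusted p below 0.05, and 0 were called by edgeR.

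The machinery of DNA methylation other than Tet2 was compared as well. Of 19 tested members 1 was higher and 5 lower at an unadjusted p below 0.05, with Tet2 among the lower ones and a median of -0.27 that became 0.22 under spike-in scaling. Dnmt1, which copies methylation at replication, had 243 and 289 CPM in KO, against 376 and 434 CPM in WT. Dnmt3a, the de novo methyltransferase, had 153 and 152 CPM in KO, against 202 and 292 CPM in WT. Idh2, the mitochondrial isocitrate dehydrogenase that makes the cosubstrate of Tet enzymes, had 562 and 543 CPM in KO, against 385 and 368 CPM in WT (log2 0.55, SE 0.106, adjusted p = 0.172). The KO and WT libraries did not overlap in these genes.

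Metabolic genes were compared in 2 lists, in which edgeR called 0 genes. In glycolysis, 7 of 19 tested members were higher and 0 lower at an unadjusted p below 0.05 (median 0.35), and 2 were higher by DESeq2. At that unadjusted p, 4 were higher with only KO and WT libraries in the fit, beside 5.68% of all genes. Against a 1.5-fold threshold 0 were higher, beside 4.33% of all genes. Pfkl, the liver-type phosphofructokinase, had 266 and 303 CPM in KO, against 187 and 184 CPM in WT, and Slc2a1, the glucose transporter GLUT1, had 48.2 and 42.9 CPM in KO, against 25.2 and 19.8 CPM in WT. Of 80 nuclear-encoded genes of oxidative phosphorylation, 15 were higher and 2 lower at an unadjusted p below 0.05 (median 0.20), with Atp5b, the beta subunit of ATP synthase, at 1669 and 1744 CPM in KO against 1406 and 1237 CPM in WT. Gapdh, whose many pseudogene copies make its count uncertain, had 15.4 and 11.2 CPM in KO, against 20.3 and 34.3 CPM in WT.

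Ribosomal protein genes were below WT on balance, with 17 of 82 lower and 1 higher at an unadjusted p below 0.05 and a median of -0.24, which became 0.26 under spike-in scaling. Rplp1, of the ribosomal stalk, had 1009 and 885 CPM in KO, against 1805 and 1914 CPM in WT (log2 -0.97, SE 0.114, adjusted p = 0.0723). Rps21, of the small subunit, had 388 and 303 CPM in KO, against 658 and 667 CPM in WT. Ribosomal protein genes have many processed pseudogenes, so that their counts are uncertain.

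**Figure D4:**
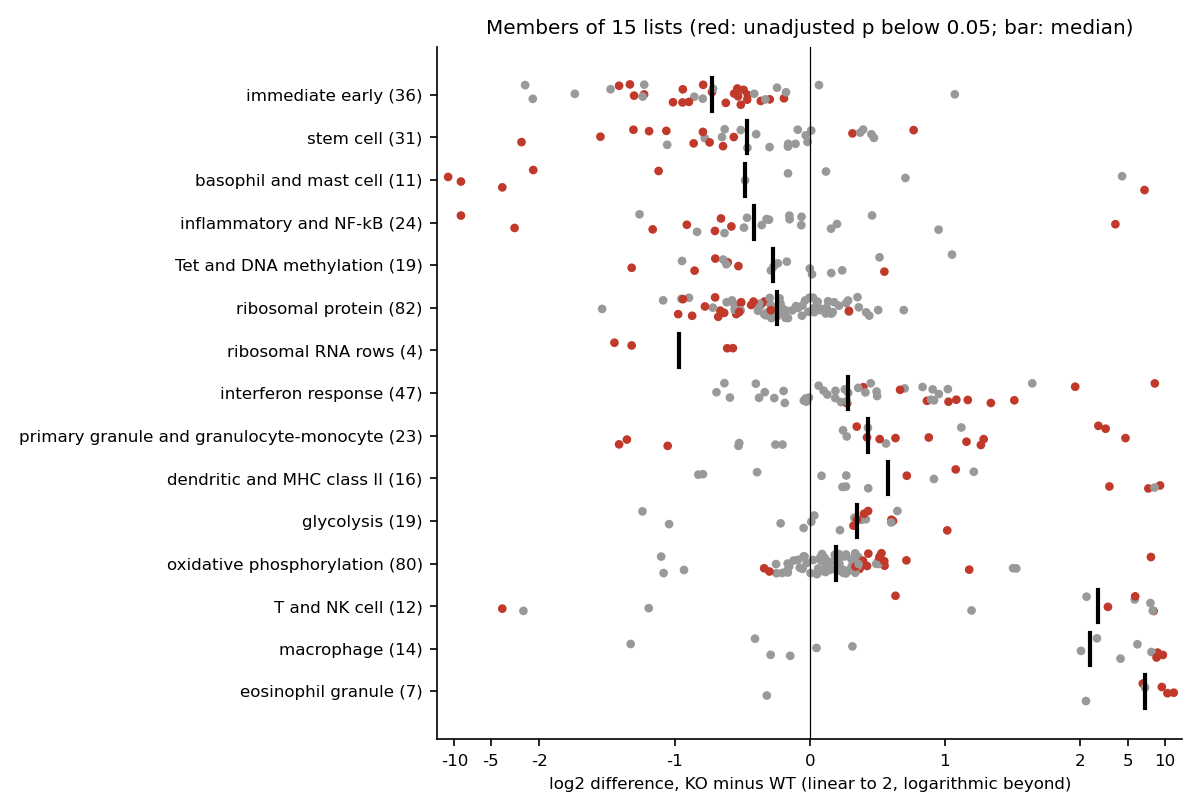
Log2 difference of KO minus WT for each tested member of 15 gene lists, with the number tested in brackets, the median as a bar and members at an unadjusted p below 0.05 in red; the axis is linear to 2 and logarithmic beyond. The bars run from -0.72 for immediate early genes and -0.96 for ribosomal RNA rows to 6.86 for eosinophil granule genes, where 5 of 7 members had at most 3 counts in WT and the median was 5.42 with these at their bound or count ratio.

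Beyond the lists, the ranked genes with the smallest unadjusted p included enzymes of transcription and RNA ends. Polrmt, the RNA polymerase of mitochondria, had 68.7 and 58.5 CPM in KO, against 4.48 and 7.68 CPM in WT (adjusted p = 0.0759). Polr3e, a subunit of RNA polymerase III, had 81.0 and 87.0 CPM in KO, against 21.7 and 14.7 CPM in WT (adjusted p = 0.142). Toe1, an exonuclease that trims small nuclear RNAs, had 46.1 and 37.8 CPM in KO, against 3.58 and 1.96 CPM in WT (adjusted p = 0.112). All 3 groups of KO values were several times those of WT, and the Mut libraries stood near KO, with Polrmt at 73.8 and 61.1 CPM.

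Golm1, a Golgi membrane protein, had 68.4 and 68.0 CPM in KO, against 3.36 and 5.55 CPM in WT (adjusted p = 0.0723). Lpcat2, an enzyme of platelet-activating factor synthesis, had 78.2 and 74.0 CPM in KO, against 20.3 and 22.3 CPM in WT. Serpina3g, a serine protease inhibitor, had 396 and 417 CPM in KO, against 235 and 215 CPM in WT. Ehd3, of endosomal recycling, and Arhgef11, a guanine nucleotide exchange factor, were at 0 counts in WT and at least 57.6-fold and 117-fold higher in KO, bounds that cover counting error only.

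On the lower side, Cdc7, the kinase that fires replication origins, had 105 and 94.1 CPM in KO, against 232 and 219.8 CPM in WT. Per1, a repressor of the circadian clock, had 63.1 and 60.4 CPM in KO, against 172 and 155 CPM in WT. Nedd9, a scaffold of adhesion signalling, had 18.4 and 9.04 CPM in KO, against 84.0 and 96.2 CPM in WT. These groups were well apart, with adjusted p values from 0.156 to 0.157. Ptma, the acidic nuclear protein prothymosin alpha, had 1378 and 1286 CPM in KO, against 2150.1 and 2097 CPM in WT (adjusted p = 0.0879). The splicing genes Acin1 and Tra2b were at 218 and 193 CPM and 399 and 376 CPM in KO, against 374 and 394 CPM and 599 and 627 CPM in WT. Malat1, a nuclear noncoding RNA, had 10342 and 10336 CPM in KO, against 12536 and 13528 CPM in WT (log2 -0.33), and crossed to 0.17 under spike-in scaling.

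In further lists edgeR called 0 genes, and their counts at an unadjusted p below 0.05 stand beside 8.03% higher and 5.72% lower over all genes. Of 26 tested DNA replication genes 3 were higher and 0 lower at an unadjusted p below 0.05, and of 25 mitosis genes 4 were higher and 3 lower. Of 23 erythroid and megakaryocyte genes 0 were higher and 4 lower, with a median of -0.37 that became 0.15, with 0 lower, under spike-in scaling. Of 15 heat shock genes 4 were higher and 1 lower. Among markers of cells that an LSK sort should leave out, 4 of 12 T and NK cell genes were higher and 1 lower, and 3 of 14 macrophage genes were higher and 0 lower, and these were mostly genes below 10 CPM in KO and at or near 0 in WT. Such genes summed to 446 and 471 CPM in KO against 307 and 375 CPM in WT for T and NK cells, of which Nkg7, also a progenitor gene, made up 412 and 423 CPM in KO and 249 and 289 CPM in WT. At most 3 counts in WT were found for 5 of the 12 T and NK cell genes and 6 of the 14 macrophage genes. These could not have passed the filter on low counts through WT. The part of such marker genes in the results was not tested.

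The difference between KO and WT in LSK was then set against that in MPP cells, in a fit of all 12 libraries that tests the difference of differences. The MPP groups rest on their labels, since the Tet2 count overlapped between them. Of 14033 genes, 102 were called (0.727%), 80 with the higher KO difference in LSK (0.57%) and 22 with the lower (0.157%). The count depends on single libraries and ran from 4, without either MPP KO library, to 903, without LSK WT replicate 2, when each was left out; under spike-in scaling it was 2. The granulocyte-monocyte list differed most in number, with 11 of 23 members called higher in LSK and 0 lower. In MPP, 22 of its 23 log2 differences were below 0 (median -0.36), beside 49.6% of all genes, while in LSK 16 were above 0. Mpo differed by 1.29 in LSK (SE 0.0691) and by -0.31 in MPP (SE 0.047), and the difference of 1.62 was called (adjusted p = 3.33e-07). Immediate early genes had a median of 0.07 in MPP, with 2 of 36, Nr4a1 and Ppp1r15a, called lower in LSK.

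Against Mut in LSK, where both groups share the fit but no libraries, 8 genes were called (0.0607%). Prg2 was higher in KO (log2 4.05, adjusted p = 0.049), and Jchain was lower (log2 -4.42, adjusted p = 0.00118). Mpo had 4178 and 4044 CPM in KO, against 4902 and 4558 CPM in Mut, and was not called (log2 -0.20, adjusted p = 0.977). Nr4a1 had 219.7 and 210.4 CPM in KO, against 143 and 128 CPM in Mut (log2 0.67, adjusted p = 0.585).

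**Figure D5:**
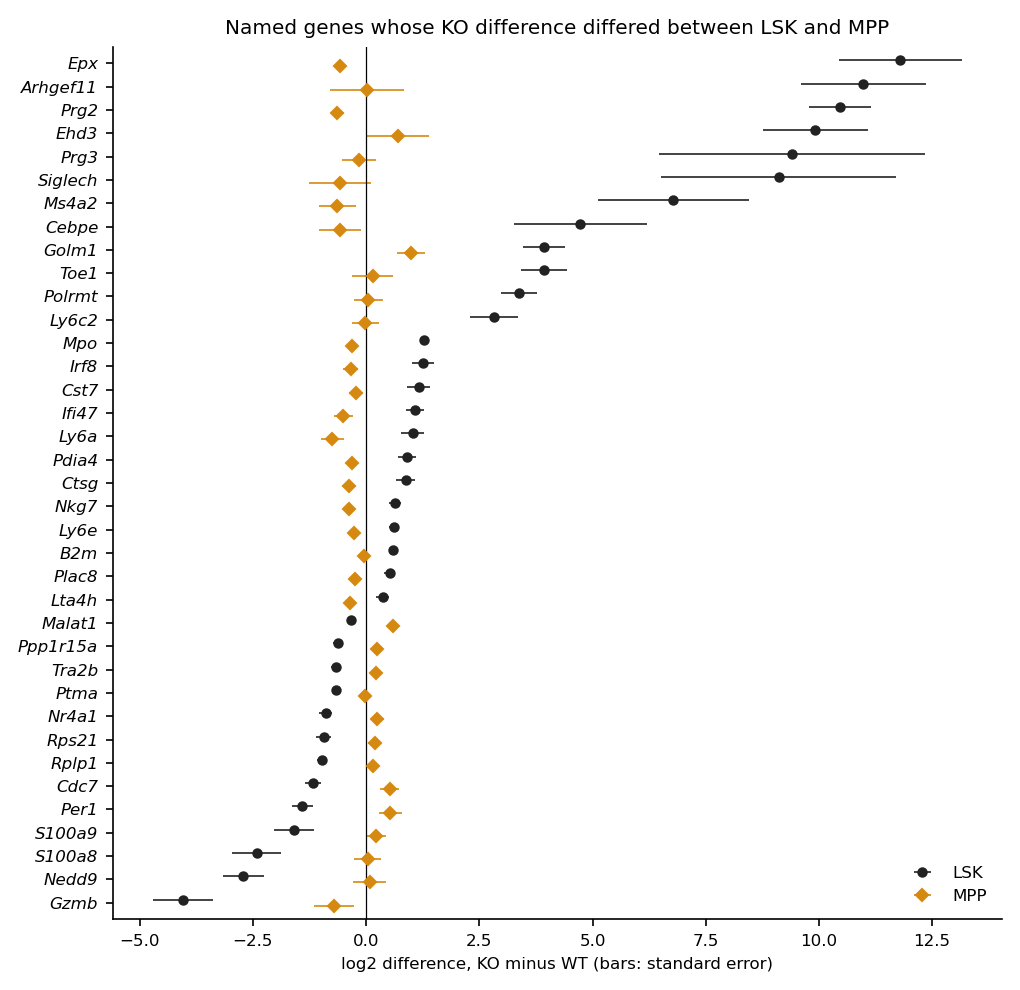
Log2 difference of KO minus WT with its standard error in LSK (circles) and MPP (diamonds) for the 37 named genes whose difference between the populations was called. Genes at the top rest on WT values at or near 0 in LSK, and in MPP most points lie between -1 and 1.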

How the data were processed

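The data are RNA-seq libraries of LSK and MPP cells sorted by flow cytometry, 2 technical libraries per genotype, read as 150-base pairs on a NextSeq 500 per the labels' protocols. The deposited values are raw counts per gene symbol. Trim Galore 0.4.1, TopHat2 2.0.13, HTSeq 0.6.1, Cufflinks and the mm10 build are named in the submitters' processing notes, and the strand setting and gene annotation are not given in the sources used here. The amplification step and the absence of molecular identifiers mean that intervals and floors cover counting error only.

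Of 24630 rows, 92 spike-ins were left out, and the other 24538 all name a gene. Genes passed a filter on low counts (edgeR filterByExpr, minimum count 10, minimum total 15), which a gene can pass through 1 group alone. The main test was the quasi-likelihood test of edgeR 4.0.16 in R 4.3.3 with TMM scaling on the 6 LSK libraries, which share an estimate of spread, with Benjamini-Hochberg adjustment over all 13170 genes and a threshold of 0.05. The comparison with MPP used all 12 libraries, of which 1 MPP KO column carries another library number than its label and was matched by the rest of its name. DESeq2 1.42.0, limma 3.58.1, other scalings and filters, a replicate block and leaving out each library were tried as alternatives. A gene at 0 in a group is given a bound, computed as if the group as a whole had 3 counts, since its fitted log2 value depends on the prior count; other intervals are exact at 95%. The tests were tested on simulated data.

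Same-numbered libraries did not deviate together (correlation -0.0167 between KO and WT, 0.0438 between KO and Mut, -0.0104 between WT and Mut), so the numbers do not pair them. The gene lists and members were chosen with earlier results of these data known. Genes were named if called, if among up to 12 per direction with the smallest unadjusted p, no overlap and a mean of at least 100 counts in the higher group, or if among up to 4 per list with the smallest p or central to its role; a few others were picked after their values were seen, and a few that met the rule are not reported here. Positions are from GENCODE on GRCm38 and promoter bases from RefSeq on GRCm38.p6.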

Additional observations from a re-analysis of the deposited data

Results flagged for a closer look

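For 37 named genes the difference between KO and WT in LSK cells was itself different from that in MPP cells, by the interaction test of edgeR over 14033 genes (adjusted p below 0.05). The values are log2 differences in LSK minus those in MPP, and those of genes at or near 0 in LSK WT depend on the prior count. No cause was tested.

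Among granulocyte-monocyte genes the value was 1.62 for Mpo, 5.38 for Cebpe, 1.40 for Cst7, 1.27 for Ctsg, 1.63 for Irf8, 2.85 for Ly6c2, 1.02 for Nkg7 and 0.78 for Plac8. Among eosinophil and mast cell genes it was 11.10 for Prg2, 12.36 for Epx, 9.58 for Prg3, 7.38 for Ms4a2 and -3.31 for Gzmb. The late neutrophil genes S100a8 and S100a9 stood at -2.42 and -1.79.

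Among interferon, surface and antigen presentation genes it was 0.66 for B2m, 1.60 for Ifi47, 1.79 for Ly6a, 0.90 for Ly6e and 9.67 for Siglech. Nr4a1 and Ppp1r15a, of the immediate early genes, stood at -1.12 and -0.83, and the clock gene Per1 at -1.92. The ribosomal protein genes Rplp1 and Rps21 stood at -1.10 and -1.11.

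The remaining genes above 0 were Arhgef11 at 10.94, Ehd3 at 9.21, Golm1 at 2.95, Lta4h at 0.74, Pdia4 at 1.23, Polrmt at 3.34 and Toe1 at 3.80. Those below 0 were Cdc7 at -1.68, Malat1 at -0.91, Nedd9 at -2.77, Ptma at -0.64 and Tra2b at -0.86.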

How the results depend on the processing

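The count of genes called for KO against WT, 6 as reported, was 71 with spike-in scaling, 50 with no filter on low counts, 593 with DESeq2, 3 with only these groups in the fit, 11 with limma voom, 3 against a 1.5-fold threshold and 3 without Rn45s and Lars2, and 0 to 1690 when each library was left out. For KO against Mut, 8 as reported, it was 22, 116, 36, 114, 3 and 3 with no filter, DESeq2, only these groups, voom, the 1.5-fold threshold and without Rn45s and Lars2, and 2 to 65 with a library left out. For LSK against MPP, 102 as reported, it was 2 with spike-in scaling, 278 with no filter, 580 with DESeq2, 7 with only these groups, 9 with voom and 4 against 1.5-fold, and 4 to 903 with a library left out. Leaving out genes at 0 in 1 WT library, an alternative chosen after seeing the data, gave 5, 7 and 103.

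With a replicate block the counts were 5, 5 and 34, and Pisd-ps1 had an adjusted p of 0.0744; the numbers do not pair the libraries. Spike-in scaling turned the sign of Cxxc5 (0.10), Dnajb1 (0.10), Dusp1 (0.0034), Fos (0.32), Ier2 (0.13), Itga2b (0.034), Jun (0.21), Junb (0.043), Kit (0.42), Malat1 (0.17), Ptgs1 (0.063), Snhg1 (0.019) and Tet3 (0.27), all log2. With a library left out, Rbm14 ran from -1.53 to 0.44 and Tet3 from -0.61 to 0.19, and both turned without WT replicate 1. Col1a2 was at -0.32 with the replicate block and ran from -4.00 to 9.07, turning without KO replicate 2. The causes were not tested. With 2 libraries of 1 pool per group, low counts in WT limit what can be compared.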
